A study of Mus musculus with 60 samples.

Results

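The replication-dependent histone genes of the mouse were followed in nascent RNA of E14 mouse embryonic stem cells in which Esrrb, an orphan nuclear receptor that helps to hold naive stem cells in that state, had been targeted by siRNA. The members were the genes whose RefSeq transcript carried a Hist1, Hist2, Hist3 or Hist4 name, which newer naming calls H1f1 to H1f6, H2ac, H2bc, H2bu, H3c and H4c, and each gene was read from the transcript with the highest summed RPKM (reads per length and depth). Of 24260 genes with a symbol, 69 were members: 6 of the linker histone class H1, 19 of H2A, 19 of H2B, 12 of H3 and 13 of H4. By cluster, 55 lay in Hist1 on chromosome 13, 10 in Hist2 on chromosome 3, 3 in Hist3 on chromosome 11 and 1, Hist4h4, on chromosome 6. A further histone name, Hist1h2aj, was not analysed here. Members were set by name, but the family was chosen with earlier results of these data known.

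The groups were cells given an siRNA against Esrrb (siEsrrb) and cells given a control siRNA (siCtrl), with 2 libraries each, harvested 72 h after transfection. All 4 libraries came from the same line, grown on gelatin with serum and LIF and with no feeder layer in the growth protocol. RNA was taken from the chromatin pellet once cytoplasm and nucleoplasm had been removed, and stranded libraries were made from it after removal of ribosomal RNA. An siRNA lowers a transcript without deleting its gene, so that some Esrrb expression remains. The series text makes an exception for nascent RNA-seq where it speaks of biological replicates, so p-values measure the spread between these libraries, which may be technical.

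Histone proteins package DNA into nucleosomes: pairs of H2A, H2B, H3 and H4 form the core, and H1 binds the linker DNA. The genes that supply them during DNA replication are short, lack introns and lie in clusters. Their transcripts end in a stem-loop in place of a poly(A) tail, and they are made in the histone locus body, a nuclear structure that Npat organises in S phase. Embryonic stem cells divide quickly and spend much of their cycle in S phase.

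The libraries held 22363943 and 61857158 reads in siEsrrb replicates 1 and 2, and 24764879 and 68002338 in siCtrl replicates 1 and 2, so that replicate number went with depth. The tools named in the submitters' processing notes also differed between replicates 1 and 2, and values are therefore given per replicate number throughout. Values below are RPKM after scaling of the libraries by medians of ratios. Tests are limma on log2(scaled RPKM + 0.5) over the 9758 genes whose mean RPKM reached 0.5. Esrrb itself stood at 1.50 and 2.08 scaled RPKM in the siEsrrb libraries and at 3.39 and 3.10 in the siCtrl libraries (log2 fold change -0.72, SE 0.15). All 8 pluripotency markers reached the minimum, and their summed scaled RPKM was 80.6 and 73.7 in siEsrrb, against 89.9 and 85.3 in siCtrl. In both siEsrrb libraries 1 of them was higher and 4, Esrrb among them, were lower, where 21.8% and 22.0% of all tested genes were. Their median log2 fold change was -0.27, with values from -0.85 to 0.47. Of fibroblast or feeder cell markers 3 of 12 reached it (summed 13.3 and 14.9, against 11.8 and 14.0) and Lum stood at 0 in every library. Most of that sum was Fn1 (log2 fold change -0.02, SE 0.16), while Acta2 (0.44, SE 0.09) and Tagln (0.62, SE 0.17), both also genes of smooth muscle, were higher in both siEsrrb libraries, with limma adjusted p of 0.285 and 0.359. Of trophectoderm markers 4 of 8 did (18.0 and 11.7, against 12.9 and 9.47), and of primitive endoderm markers 2 of 8 (2.85 and 3.36, against 4.85 and 4.62), Lama1 at -1.27 (SE 0.24) and Sparc at 0.14 (SE 0.07). The part of these markers in the histone values was not tested.

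The promoters show what the members share besides their names. RefSeq windows of 250 bases before to 50 bases after each start (build GRCm38.p6, whereas the RPKM files use mm9) were matched for 62 of the 69 members, in 63 windows. One window per class is printed 5′ to 3′ on the gene's strand, for the member with the highest level that had one. Capitals mark, on either strand, the CCAAT box (CCAAT, or ATTGG when read on the other strand), the TATA box TATAAA, the octamer ATTTGCAT and the H1 box AAACACA. No motif contains another. The linker gene Hist1h1c (chr13:23738557-23738856, plus strand) carries a CCAAT box and an H1 box, Hist2h2aa1 (chr3:96245247-96245546, plus strand) 2 CCAAT boxes and a TATA box, and Hist1h2bq (chr13:21810150-21810449, minus strand) 3 CCAAT boxes. Hist2h3c2 (chr3:96239078-96239377, minus strand) has 1 CCAAT box and Hist1h4n (chr13:21832148-21832447, minus strand) a TATA box and no CCAAT box. These names stand for the letters only. The CCAAT of Hist2h3c2 begins 15 bases and the TATAAA of Hist2h2aa1 12 bases after the annotated start, and the TATAAA of Hist1h4n 127 bases before it, which are not the usual places of such elements.
Hist1h1c: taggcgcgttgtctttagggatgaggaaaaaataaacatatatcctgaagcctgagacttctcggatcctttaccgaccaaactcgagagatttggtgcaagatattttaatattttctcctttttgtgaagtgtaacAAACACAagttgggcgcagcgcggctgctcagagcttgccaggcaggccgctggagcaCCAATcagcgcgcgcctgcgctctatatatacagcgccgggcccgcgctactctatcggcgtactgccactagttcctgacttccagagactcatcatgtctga
Hist2h2aa1: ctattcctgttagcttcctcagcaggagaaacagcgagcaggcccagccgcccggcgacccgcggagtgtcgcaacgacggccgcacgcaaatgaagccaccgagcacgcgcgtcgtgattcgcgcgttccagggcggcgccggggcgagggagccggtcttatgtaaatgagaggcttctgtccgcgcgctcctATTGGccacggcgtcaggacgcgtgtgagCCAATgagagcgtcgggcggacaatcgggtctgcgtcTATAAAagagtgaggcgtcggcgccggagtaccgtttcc
Hist1h2bq: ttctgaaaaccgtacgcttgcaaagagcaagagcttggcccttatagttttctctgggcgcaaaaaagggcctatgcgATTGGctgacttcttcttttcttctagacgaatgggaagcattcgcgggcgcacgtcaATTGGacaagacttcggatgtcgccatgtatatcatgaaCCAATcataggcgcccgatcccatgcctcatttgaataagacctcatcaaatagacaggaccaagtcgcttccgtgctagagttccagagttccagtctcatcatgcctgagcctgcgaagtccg
Hist2h3c2: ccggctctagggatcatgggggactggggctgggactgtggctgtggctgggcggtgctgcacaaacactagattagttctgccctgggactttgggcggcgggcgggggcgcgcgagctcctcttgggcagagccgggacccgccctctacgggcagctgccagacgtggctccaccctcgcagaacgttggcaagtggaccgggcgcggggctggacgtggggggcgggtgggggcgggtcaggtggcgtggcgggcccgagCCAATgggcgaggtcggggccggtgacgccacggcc
Hist1h4n: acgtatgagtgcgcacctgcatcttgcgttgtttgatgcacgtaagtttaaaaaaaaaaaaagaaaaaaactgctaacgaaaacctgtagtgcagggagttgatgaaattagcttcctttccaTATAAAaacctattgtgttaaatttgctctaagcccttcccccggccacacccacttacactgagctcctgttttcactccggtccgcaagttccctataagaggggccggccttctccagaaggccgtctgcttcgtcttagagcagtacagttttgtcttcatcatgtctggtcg

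Across the family, CCAAT occurred in 85.7% of the members' windows and in 37.4% of all 32851 promoter windows. It was found in all 6 H1, 18 H2A, 17 H2B and 10 H3 windows, and in 3 of 12 H4 windows. TATAAA occurred in 55.6% of the members' windows and in 13.6% of all windows, with 8 of 12 H4 windows among them. The octamer, the binding motif of the Oct factors, occurred in 22.2% against 1.74%. Every member window with an octamer belonged to H2A (7 of 18) or H2B (7 of 17). AAACACA was found in 5 of 6 H1 windows, in 2 H2A and 2 H2B windows, in no H3 or H4 window, and in 7.18% of all windows. Neighbouring windows can overlap, so that these counts are not independent, and a match is not a measured binding site.

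Histone genes had more nascent RNA in the siEsrrb libraries, in every class and every cluster. Of 67 members that reached the expression minimum, 66 were higher in both siEsrrb libraries than in both siCtrl libraries, 0 were lower in both and 1 overlapped, where 21.8% of all tested genes were higher and 22.0% lower. In these bulk libraries, more cells that transcribe a gene and more RNA per cell cannot be told apart. With libraries scaled on short protein-coding genes outside the members, the median of all genes was -0.20. With that scaling 43 of the 67 were higher in both (5.14% of all genes) and 2 had a fitted value below 0. The median log2 fold change of the members was 0.49, a 1.41-fold difference, beside -0.001 over all tested genes. No member stood below 0.19 or above 0.93. Expressed per replicate number, the medians were 0.67 in replicate 1 and 0.27 in replicate 2, and all 67 members were above 0 in each. No histone gene passed the threshold of 0.05 on limma's p adjusted over all genes (adjusted p between 0.251 and 0.715), and neither did any of the 9758 genes (0.0%, smallest adjusted p 0.247). At an unadjusted p under 0.05, 25 members were higher and 0 lower, against 5.92% of all genes higher and 5.33% lower. Fits on whole reads recovered from the RPKM (limma's voom) gave 0 members and 0 genes past the adjusted threshold. They gave 27 of 67 members, and 1818 of 15243 genes in either direction, at an unadjusted p under 0.05. With voom and the replicate number as a block, a fit added after the data were seen, 51 of 67 members passed as higher, where 10.6% of all genes did.

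**Figure D1:**
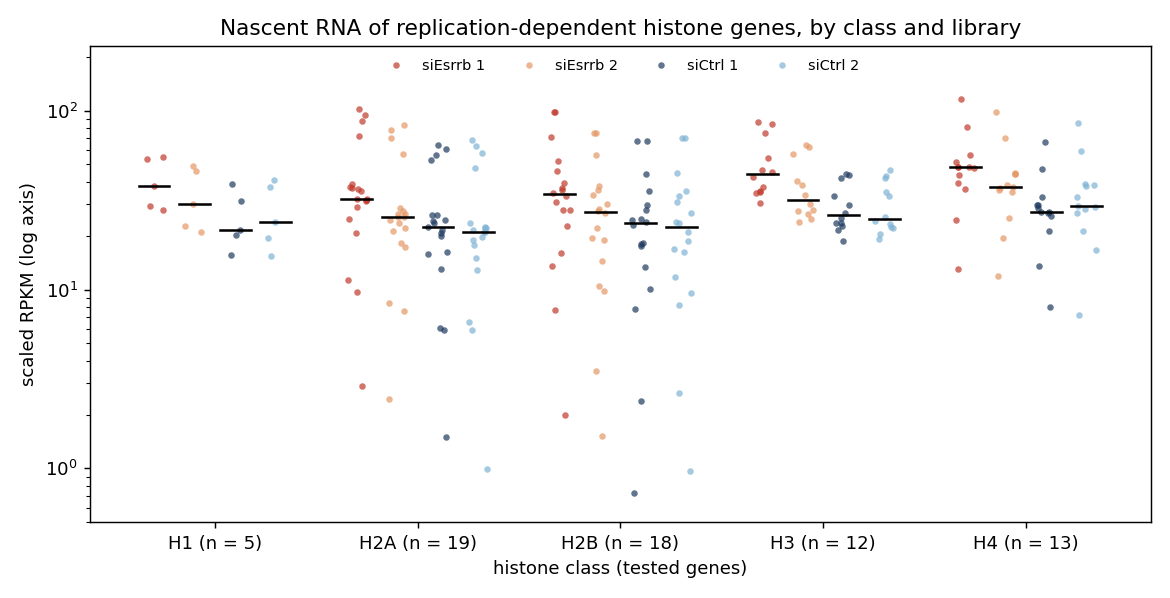
Scaled RPKM (log axis) of the 67 tested histone genes in each library, grouped by class. Each point is 1 gene and each black bar the median of that class in that library. In every class the bars of siEsrrb 1 and siEsrrb 2 lie above those of siCtrl 1 and siCtrl 2, and siEsrrb 1 is the highest.

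Several members could not be told apart by their reads. Hist2h3c1 and Hist2h3c2, Hist2h2aa1 and Hist2h2aa2, Hist1h2bq and Hist1h2br, and Hist1h2ao and Hist1h2ap had the same reads in all 4 libraries, so that the 69 genes amount to 65 sets of reads. Counted that way, 62 of 63 tested sets were higher in both siEsrrb libraries. How reads that fit several copies were assigned is not given in the sources used here, and values of single members of these near-identical families are uncertain for that reason. The Hist1h2al and Hist3h2bb-ps loci are annotated as transcribed pseudogenes. Without them, 64 of 65 members were higher in both and the median was 0.46. Each library gave the tested members a median of 373 and 942 reads in siEsrrb 1 and 2, and 282 and 862 in siCtrl 1 and 2. There were 6 tested members with fewer than 100 reads in at least 1 library.

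**Figure D2:**
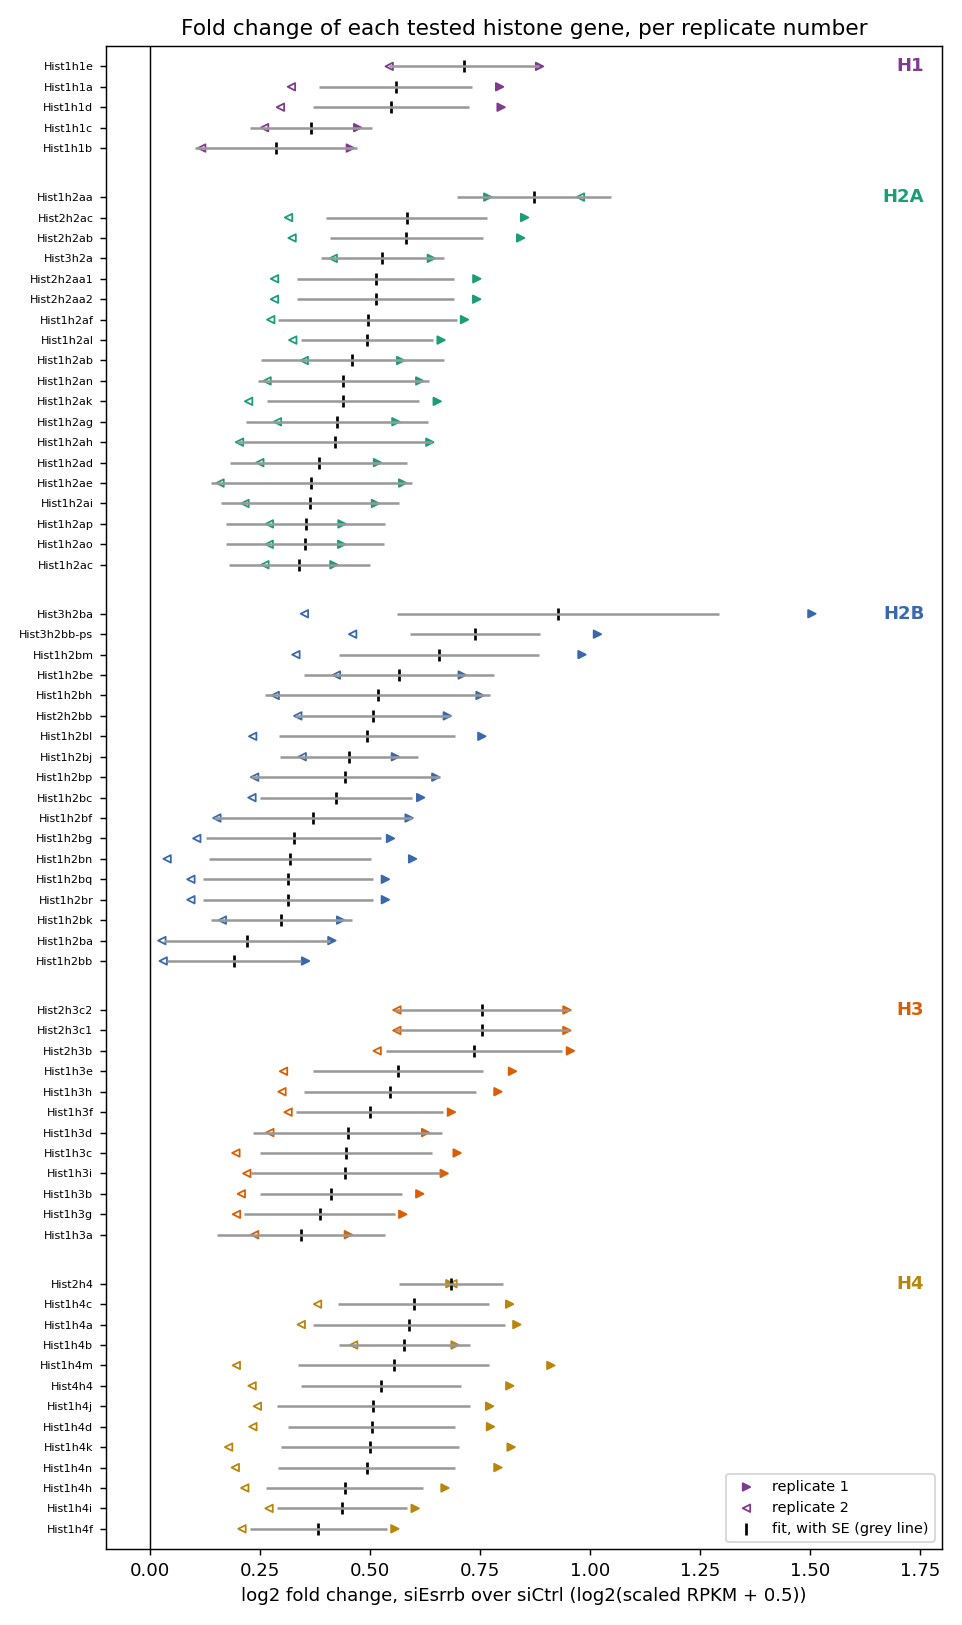
Log2 fold change of siEsrrb over siCtrl for each of the 67 tested histone genes, ordered within class. Filled triangles are replicate 1, open triangles replicate 2, black ticks the fitted value and grey lines its SE. All triangles lie right of 0, and the replicate 1 value is the larger for 65 genes.

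The linker histones H1 bind where DNA enters and leaves the nucleosome. Each of the 5 tested H1 genes was higher in siEsrrb without overlap, and their median log2 fold change was 0.55 (replicate 1 gave 0.79, replicate 2 gave 0.30). Hist1h1c (H1f2), one of the 2 most abundant, had 53.9 and 49.2 scaled RPKM in siEsrrb and 38.7 and 41.0 in siCtrl, a log2 fold change of 0.37 (SE 0.14, limma adjusted p 0.454). Hist1h1d (H1f3) had 55.0 and 46.2 in siEsrrb and 31.4 and 37.6 in siCtrl (0.55, SE 0.18, limma adjusted p 0.412). For both genes the lower siEsrrb library stood above the higher siCtrl library. The largest change in the class belonged to Hist1h1e (H1f4), with 29.3 and 22.7 in siEsrrb and 15.7 and 15.4 in siCtrl (0.71, SE 0.17, limma adjusted p 0.321). The smallest belonged to Hist1h1b (H1f5), with 28.0 and 21.0 against 20.3 and 19.3 (0.29, SE 0.18, limma adjusted p 0.619). Hist1h1e thus stood below Hist1h1b in both siCtrl libraries and above it in both siEsrrb libraries. Hist1h1t, the testis linker histone, stayed under the expression minimum with 0.529 and 0.500 scaled RPKM in siEsrrb and 0.404 and 0.185 in siCtrl.

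H2A pairs with H2B in the nucleosome. Each of the 19 H2A genes was higher in siEsrrb without overlap, and the class median was 0.44 (by replicate, 0.64 and 0.27). The most abundant, Hist2h2aa1 (H2ac18) and its copy Hist2h2aa2, read from the same reads, differed only through the length used. Hist2h2aa1 had 102.0 and 83.1 scaled RPKM in siEsrrb and 60.7 and 68.3 in siCtrl (log2 fold change 0.51, SE 0.18, limma adjusted p 0.423), and Hist2h2aa2 had 95.1 and 77.6 against 56.7 and 63.7. The smallest change was that of Hist1h2ac (H2ac6), with 32.2 and 26.4 in siEsrrb and 24.0 and 21.9 in siCtrl (0.34, SE 0.16, limma adjusted p 0.528). The largest was that of Hist1h2aa (H2ac1), the gene of the testis form TH2A, at a low level: 2.90 and 2.44 scaled RPKM in siEsrrb and 1.50 and 0.993 in siCtrl (0.87, SE 0.17, limma adjusted p 0.281). Hist1h2aa was also 1 of the only 2 members whose fold was larger in replicate 2, at 0.98, than in replicate 1, at 0.77.

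In the H2B class 17 of 18 tested genes were higher in siEsrrb without overlap, and the class median was 0.43 (by replicate, 0.61 and 0.23). Hist1h2bq (H2bc23), the most abundant, shared its reads with Hist1h2br, which RefSeq lists under the symbol H4bc24 although it is an H2B gene. It had 98.5 and 74.8 scaled RPKM in siEsrrb and 67.9 and 70.1 in siCtrl (0.31, SE 0.19, limma adjusted p 0.606), so that siEsrrb 2 stood barely above the controls. The smallest fold change of all members was that of Hist1h2bb (H2bc3), with 35.8 and 33.9 in siEsrrb and 27.9 and 33.2 in siCtrl (0.19, SE 0.15, limma adjusted p 0.686). Hist1h2ba (H2bc1), which encodes the testis form TH2B, was the single tested member whose groups overlapped: 13.6 and 9.79 in siEsrrb against 10.1 and 9.60 in siCtrl (0.22, SE 0.19, limma adjusted p 0.715). Without siEsrrb replicate 1 the value of Hist1h2ba was -0.008, and with scaling on short genes those of Hist1h2ba and Hist1h2bb were -0.04 and -0.07. At the other end stood Hist3h2ba (H2bu2), with 7.68 and 3.52 in siEsrrb and 2.38 and 2.65 in siCtrl (0.93, SE 0.37, limma adjusted p 0.464). That value rested on siEsrrb replicate 1, in which the gene was 1.50 higher on the log2 scale than in siCtrl replicate 1, against 0.35 in replicate 2. Without siEsrrb replicate 1 it was 0.41. Hist2h2be stayed under the minimum, at 0.146 and 0.190 in siEsrrb and 0.143 and 0.133 in siCtrl.

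H3 carries many of the modified residues by which active and silent chromatin are told apart. Each of the 12 H3 genes was higher in siEsrrb without overlap, and the class median was 0.47 (by replicate, 0.69 and 0.29). Hist2h3c2 (H3c15) had the highest level and the largest change, with 86.1 and 64.0 scaled RPKM in siEsrrb and 44.4 and 43.2 in siCtrl (0.75, SE 0.20, limma adjusted p 0.349). Hist2h3c1 (H3c14), read from the same reads, had 84.1 and 62.6 against 43.4 and 42.2. The siCtrl libraries differed by little here, and both siEsrrb libraries were far above them. Hist2h3b (H3c13), the third H3 gene of Hist2, had a value of 0.74. At the lower end, Hist1h3a (H3c1) had 34.7 and 26.3 in siEsrrb and 25.2 and 22.3 in siCtrl (0.34, SE 0.19, limma adjusted p 0.579).

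H4 pairs with H3, and its genes encode a protein that hardly varies between copies. Each of the 13 H4 genes was higher in siEsrrb without overlap, and the class median was 0.51 (by replicate, 0.77 and 0.23). Hist1h4n (H4c18) had the highest level among all members, with 116.1 and 98.0 scaled RPKM in siEsrrb and 66.9 and 85.6 in siCtrl (0.49, SE 0.20, limma adjusted p 0.481). Hist1h4d (H4c4) had 81.3 and 70.0 in siEsrrb and 47.3 and 59.4 in siCtrl (0.50, SE 0.19, limma adjusted p 0.449). In both genes siCtrl 1 was the lowest library, and the class as a whole was lower in siCtrl 1 than in siCtrl 2, by a median of -0.23 on the log2 scale, with 4 of 13 genes the other way. Hist1h4f (H4c6) had the smallest change, with 48.6 and 44.9 in siEsrrb and 32.9 and 38.7 in siCtrl (0.38, SE 0.16, limma adjusted p 0.479). Hist2h4 (H4c14) had the largest, with 13.0 and 11.9 in siEsrrb and 7.94 and 7.19 in siCtrl (0.68, SE 0.12). It was the member with the smallest p (unadjusted limma p 0.0039, adjusted 0.251), and its fold was almost the same in replicate 1 (0.68) and replicate 2 (0.69).

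Summed over all members, with shared reads counted once, histone genes took 1297 and 1013 RPM (reads relative to library depth, not to length, after scaling) in siEsrrb replicates 1 and 2, and 808 and 837 RPM in siCtrl replicates 1 and 2 (1155 ± 201 and 823 ± 20.7, SD, n = 2 each). The ratio was 1.61 in replicate 1 and 1.21 in replicate 2. With 2 libraries in each group the smallest p of an exact permutation test is 0.333, so none was run. Ratios were similar between classes: H4 1.70 and 1.20, H3 1.69 and 1.26, H1 1.60 and 1.23, H2A 1.54 and 1.22, and H2B 1.53 and 1.15. H2B had the smallest ratio in both replicates, while the place of H4 changed between them.

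**Figure D3:**
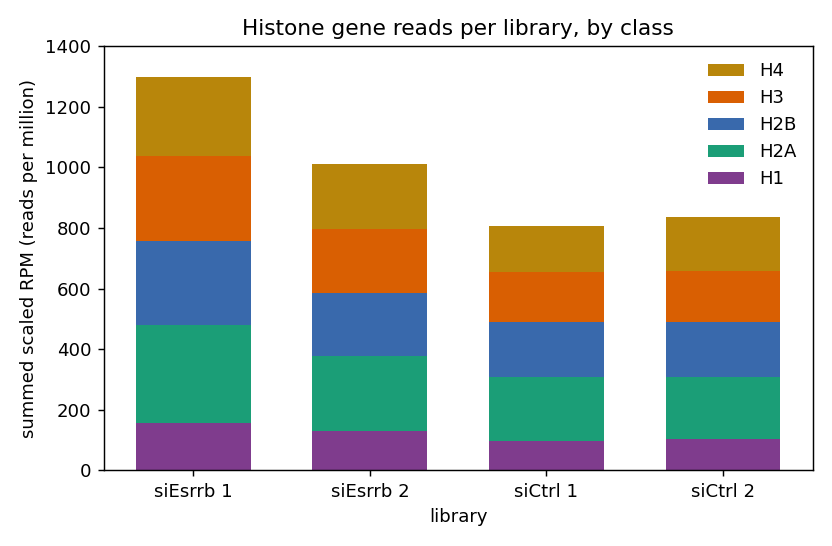
Scaled RPM of histone genes in each library, stacked by class, with reads shared by identical copies counted once. The siEsrrb bars reach 1297 and 1013, above the siCtrl bars at 808 and 837, and every class contributes to the difference.

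The makeup of the histone reads differed by a few percentage points at most, by class and by cluster. Of all histone reads, H2B genes took 21.3% and 20.8% in siEsrrb and 22.4% and 21.9% in siCtrl, and H3 genes 21.6% and 20.9% in siEsrrb and 20.6% and 20.0% in siCtrl. Shares of H1 lay between 12.0% and 12.7% and those of H2A between 24.3% and 26.0%, and for both classes, as for H4, the groups overlapped. The Hist2 cluster took 15.0% of histone reads in each siEsrrb library (95% Wilson intervals 14.6% to 15.5% and 14.7% to 15.2%) and 13.6% in each siCtrl library (13.1% to 14.1% and 13.3% to 13.9%). The Hist1 cluster took 83.0% and 83.1% in siEsrrb and 84.7% and 84.5% in siCtrl, and the small Hist3 cluster 1.2% and 1.1% in siEsrrb and 1.0% and 0.98% in siCtrl. The intervals cover counting error only. The H3 genes of Hist2 held most of the Hist2 difference, with 6.10% and 5.77% in siEsrrb and 5.03% and 4.75% in siCtrl. The H3 genes of Hist1 took 15.5% and 15.1% in siEsrrb and 15.5% and 15.3% in siCtrl.

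**Figure D4:**
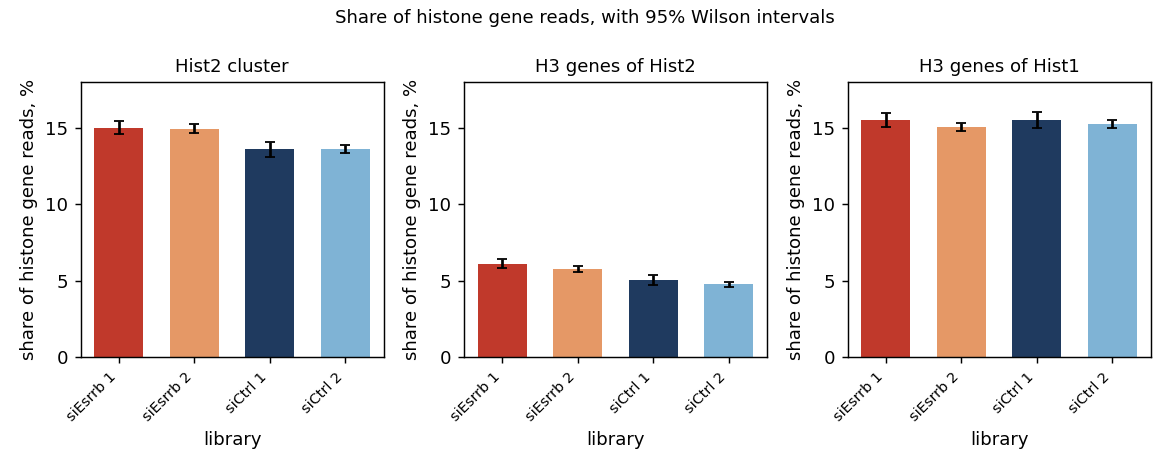
Percentage of all histone gene reads that fell on the Hist2 cluster, on its H3 genes and on the H3 genes of Hist1, per library, with 95% Wilson intervals as bars. The Hist2 shares are 15.0% in both siEsrrb libraries and 13.6% in both siCtrl libraries, while the Hist1 H3 shares overlap.

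By cluster, the median log2 fold change was 0.58 for the 9 tested Hist2 genes (by replicate, 0.84 and 0.34) and 0.44 for 54 Hist1 genes (0.63 and 0.24). It was 0.74 for 3 Hist3 genes (1.02 and 0.42) and 0.52 for Hist4h4 (0.82 and 0.23). The Hist3 median was the value of the pseudogene Hist3h2bb-ps, with 19 and 46 reads in siEsrrb and 8 and 33 in siCtrl. Of the other Hist3 genes, Hist3h2ba rested on siEsrrb replicate 1, as given above, and Hist3h2a stood at 0.53. The medians of Hist2 and Hist1 differed by 0.14, and by 0.10 to 0.20 when 1 library at a time was left out. All 9 Hist2 genes, which are 7 sets of reads, had an unadjusted limma p under 0.05, as did 13 of 54 Hist1 genes (5.92% of all genes were higher at that p). With scaling on short genes 2 of the 9 and 1 of the 54 were under it, as were 1310 of 9758 genes in either direction. With the replicate number as a block 9 of the 9 and 32 of the 54 had an unadjusted limma p under 0.05. So did 2557 of 9758 genes in either direction. When 1 library was left out, these counts changed for both clusters with the library removed. The median then ranged from 0.39 to 0.77 for Hist2 and from 0.25 to 0.65 for Hist1. Within a class the order was the same: H3 genes had a median of 0.75 in Hist2 and 0.45 in Hist1, and H2A genes 0.55 in Hist2 and 0.42 in Hist1. No test of clusters was made, because genes of a cluster are not replicates and some share reads.

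Many H2A and H2B genes face each other across a shared promoter. Among members with a promoter window, 10 pairs lay head to head with starts 164 to 281 bases apart, and all 10 joined an H2A to an H2B gene of Hist1. Because of shared reads, Hist1h2bq with Hist1h2ao and Hist1h2ap with Hist1h2br are 1 measurement, so that the 10 pairs hold 9 distinct ones. Partners had a median absolute difference in fold change of 0.04 on the log2 scale, and the 200 other combinations of an H2A with an H2B gene of Hist1 had a median of 0.11. No test was made, and 4 of the 10 pairs differed by more than 0.11. The pair furthest apart was the testis pair, Hist1h2aa at 0.87 and Hist1h2ba at 0.22, a difference of 0.65.

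The size of the difference depended on siEsrrb replicate 1. All 67 tested members were higher in siEsrrb 1 than in siEsrrb 2, by a median of 0.38 on the log2 scale, whereas 34 of 67 were higher in siCtrl 1 than in siCtrl 2, with a median of 0.001. Without siEsrrb replicate 1 the median of the members was 0.31, and without siEsrrb replicate 2 it was 0.66. The class with the largest gap between the siEsrrb libraries was H3 (0.42) and the one with the smallest was H4 (0.24). Across the 63 tested sets of reads, the folds of replicates 1 and 2 had a Pearson r of 0.43 and a Spearman rho of 0.53, a description over genes of the same 4 libraries. Esrrb was also further from control in replicate 1 (-0.96) than in replicate 2 (-0.48). A link between that and the histone values was not tested, and replicate number also went with depth.

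Other short genes were also more often higher than lower in siEsrrb. The length by which RPKM was divided had a median of 470 bases for members and of 16706 bases for all tested genes. The 52 tested protein-coding genes under 1000 bases outside the members had a median of 0.23 on the log2 scale (by replicate, 0.36 and 0.03). Of these, 44.2% were higher in both siEsrrb libraries and 5.77% lower. Only members were taken out of this set, and variant histones were not filtered. From 1000 to 10000 bases the median was 0.08 (2362 genes, 33.2% higher, 12.3% lower), and from 10000 bases on it was -0.03 (6202 genes, 15.5% higher, 27.9% lower). The 786 tested non-coding genes under 1000 bases outside the members had a median of 0.19 (by replicate, 0.19 and 0.15). In that set 27.6% were higher and 7.76% lower. Over all genes with a known length, fold and log2 length had a Pearson r of -0.30 and a Spearman rho of -0.35 (9751 genes of the same libraries). Among the 63 tested sets of histone reads fold and log10 length had a Pearson r of 0.01 and a Spearman rho of -0.07. Since 66 of the 67 tested members were under 1000 bases, that range is too narrow to show a relation seen over all lengths. Of the 52 short genes, 11 had a mean RPKM of 5 or more, closer to histone levels, and their median was 0.25 with 7 higher in both. With scaling on the short genes, members had a median of 0.22 and stood 0.42 above the median of all genes, against 0.49 with the main scaling. Hist1h2aa and Hist3h2ba then passed the adjusted threshold, 2 of 67 members, where 1.18% of all genes passed as higher. The part of length in the histone values was not tested beyond these numbers.

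**Figure D5:**
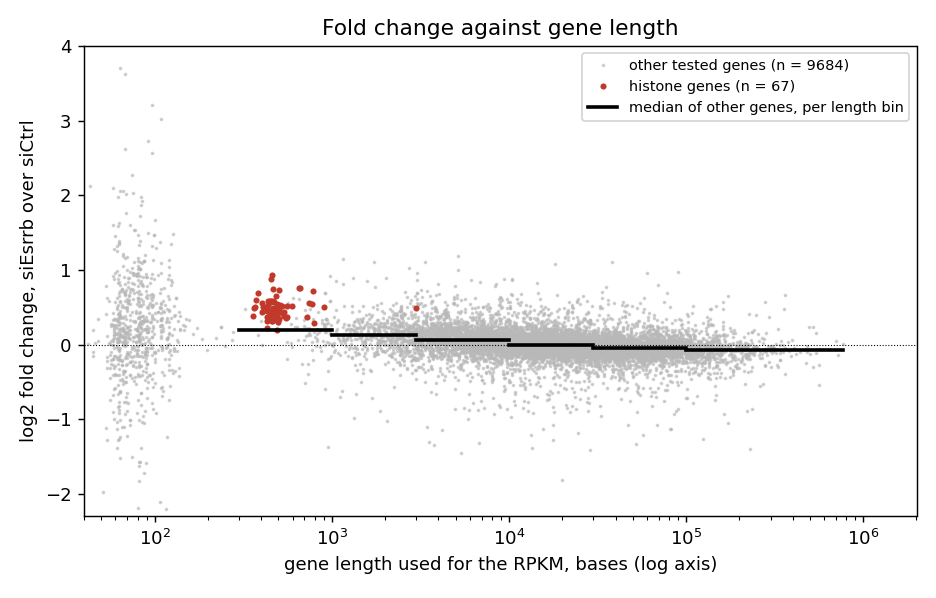
Log2 fold change of siEsrrb over siCtrl against the gene length used for RPKM (log axis) for all tested genes with a known length. Grey points are other genes, red points the 67 histone genes and black lines the median of the other genes in each length bin. The medians step down with length, and all red points lie above 0.

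Variant histones, which are made outside replication from genes with ordinary poly(A) tails in most cases, showed smaller differences. Of 10 tested genes 4 were higher without overlap and 0 lower, where 21.8% and 22.0% of all tested genes were. Among protein-coding genes under 1000 bases outside the members, 44.2% were higher and 5.77% lower. Whether variant histones differ from these shares was not tested. The median of the variant histones was 0.22, although it was -0.01 with scaling on short genes. H3f3b, 1 of 2 genes for the replacement histone H3.3, had 15.8 and 13.1 scaled RPKM in siEsrrb and 10.6 and 11.0 in siCtrl (0.40, SE 0.14, limma adjusted p 0.423). Its partner H3f3a, a longer gene for the same protein, overlapped between groups, with 4.05 and 3.81 against 3.90 and 3.45 (0.09, SE 0.10). The linker variant H1f10 had a value of 0.46 (SE 0.20), H2aj 0.33 (SE 0.08) and H2ax, which is phosphorylated at DNA breaks, 0.32 (SE 0.16). Cenpa, the centromeric H3, had 0.05.

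Genes whose products transcribe histone genes or process their RNA had no common direction. Of 25 tested genes 3 (12.0%) were higher and 3 (12.0%) lower without overlap, beside 21.8% and 22.0% of all tested genes. The list's median was -0.01, or -0.22 with scaling on short genes. Slbp, which binds the stem-loop, had 2.52 and 2.18 scaled RPKM in siEsrrb and 2.42 and 2.33 in siCtrl (-0.02, SE 0.09). Npat, the coactivator of the histone locus body, had 2.44 and 2.80 against 2.56 and 2.84 (-0.04, SE 0.10), and Casp8ap2, its partner protein there, 0.01 (SE 0.07). For these 3 genes the groups overlapped, and the sign changed under some settings. Lsm11, of the U7 snRNP that cleaves histone transcripts, had -0.12 (SE 0.09), and Lsm10, of the same particle, was under the minimum. The smallest p belonged to Coil, the marker protein of Cajal bodies (-0.25, SE 0.07), Nfyc, a subunit of the factor that binds CCAAT (-0.19, SE 0.06), and Ncbp1, of the cap-binding complex (0.10, SE 0.07), all with limma adjusted p of 0.394 or more.

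Histone chaperones and cell cycle genes went in both directions. Of 20 chaperone genes 5 (25.0%) were higher and 6 (30.0%) lower without overlap (median 0.008), where 21.8% and 22.0% of all tested genes were. Leading the list by p were Hat1, which acetylates new H4 (-0.28, SE 0.10), and Asf1b, which hands over H3 with H4 (-0.16, SE 0.08). Anp32e, which removes H2A.Z, came next (0.14, SE 0.07). Among 50 genes of S phase and DNA replication 7 (14.0%) were higher and 15 (30.0%) lower (median -0.03). Protein-coding genes outside the members of 10000 bases or more had 15.5% and 27.9%. At an unadjusted limma p under 0.05, 0 S phase genes were higher and 4 lower, against 5.92% and 5.33% of all genes. E2f2, a transcription factor of the G1 to S transition, had 0.390 and 0.436 scaled RPKM in siEsrrb and 0.679 and 0.686 in siCtrl (-0.37, SE 0.08), Pola1, of DNA polymerase alpha, had -0.27 and Orc1, of the origin recognition complex, -0.27. Of 28 genes of G2 and mitosis 5 (17.9%) were higher and 2 (7.14%) lower (median -0.03). Cdc20, an activator of the anaphase-promoting complex, stood at 0.39 (SE 0.11). The mitotic kinase gene Plk1 stood at 0.25 (SE 0.09) and Ube2c at 0.17 (SE 0.11). None of these genes passed limma's adjusted threshold. With scaling on short genes the medians of chaperone, S phase and mitosis genes were -0.23, -0.25 and -0.27.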

How the data were processed

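Nascent RNA-seq of 4 libraries was used, of 60 samples in the series. Per the submitters' processing notes, the build was mm9 and the tools named were CASAVA 1.4 and TopHat2, with Bowtie 1.1.1 and Bowtie2 also named for replicate 1. The authors deposited RPKM for 34929 RefSeq transcripts in each library, and a series table equal to replicate 1 throughout. The counting method, and how reads with several matches were treated, is not given in the sources used here.

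RefSeq ids were matched to symbols for 34631 transcripts (298 had none). Reads and lengths were recovered from the deposited RPKM, giving whole reads within 0.0002 for 31753 of 31771 transcripts above 0. Libraries were scaled by medians of ratios of the deposited RPKM, and log2(scaled RPKM + 0.5) was computed. Genes whose mean deposited RPKM reached 0.5 were fitted with limma 3.58.1 (R 4.3.3, trend, no block), two-sided, with Benjamini-Hochberg adjustment. The procedure was tested on simulated data. Fold changes on this scale understate changes of low genes. The members and lists were chosen with earlier results of these data known. Named in full are, per class, the 2 members with the highest mean and those with the largest and smallest fold change, members whose groups overlap and members under the minimum. Of each list the 3 genes with the smallest p are named, with Slbp, Npat, Casp8ap2, Lsm10 and Lsm11. H3f3a, H2ax, Cenpa, Hist2h3b and the named markers were added after their values were seen. Counting error is limited by 8 to 3017 reads per tested member and library. Protein sequences were not used here.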

Additional observations from a re-analysis of the deposited data

How the results depend on the processing

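The alternatives were 2 other pseudocounts, 2 other filters, 4 other scalings, the transcript with most reads, voom, a replicate block and leaving out each library. The direction of the members' median and of every class and cluster median was kept under all of them. With scaling on short genes outside the members, 450 genes and 2 members passed the adjusted threshold, and 43 members were higher without overlap. Medians were then 0.28 for H1 and 0.18 for H2A. For the other lists they were -0.27 (G2 and mitosis), -0.25 (S phase), -0.23 (chaperones), -0.22 (transcription and processing) and -0.013 (variant histones). Signs turned there for Hist1h2bb (-0.0735), Hist1h2ba (-0.038), Ube2c (-0.082), Anp32e (-0.079), Ncbp1 (-0.11) and Casp8ap2 (-0.20). Casp8ap2 was also -0.014 with a mean RPKM of at least 2 and -0.023 without scaling. The S phase median was -0.074 without scaling and 0.00188 with scaling on long genes, where Slbp was 0.017. Without a filter the variant histone median was 0.12. Those causes were not tested.

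With 1 library left out, 0 to 12 genes passed (2 without siCtrl replicate 1, 12 without siEsrrb replicate 2) and no member did. Medians ranged from -0.097 to 0.075 for G2 and mitosis, from -0.032 to -0.00021 for S phase and from 0.16 to 0.30 for variant histones. Single genes ranged from -0.10 to 0.071 (Slbp), -0.12 to 0.046 (Npat), -0.0070 to 0.030 (Casp8ap2) and -0.0082 to 0.45 (Hist1h2ba). An arm with 1 library is assumed to vary like the other.

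The labels do not say that a replicate number pairs libraries. Deviations of same-numbered libraries correlated at 0.39. A replicate block left the adjusted calls at 0. With it 43 of 67 members, and 2557 of 9758 genes in either direction, had an unadjusted limma p under 0.05. Voom with that block, chosen after seeing the data, gave 3132 genes and 51 members past the threshold. Counting each copy although reads are shared, also chosen later, raised the Hist2 share difference to 1.92 percentage points, against 1.38. Depth limits the low members, of which Hist3h2bb-ps had the fewest reads, 8 in siCtrl replicate 1.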
